A study of Drosophila melanogaster with 4 samples.

Results

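The genes described here encode the actin and microtubule cytoskeleton of the cell and the proteins that tie it to the nuclear envelope. They were 40 named Drosophila melanogaster genes, chosen by gene symbol from their known functions, with earlier results of these data known. Of the 7451 genes listed in at least 1 table, 39 were members, and 1 named gene, fj-like, stood in none. The members fell into 6 genes of the nuclear envelope linker and lamina, 11 genes of actin and its regulators, 5 of non-muscle myosin II and its regulators, 9 of actin-binding, crosslinking and spectrin proteins, 7 of tubulins and motors, and 2 for which no role is given here, frm and fj-like.

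The samples were wing imaginal discs, the larval epithelia from which the adult wing forms, of third-instar larvae. All 4 genotypes carried 1 copy of the ap-Gal4 driver with GFP, and the driver is active in the dorsal compartment of the disc. Control discs (ap-Gal4>GFP/+) carried nothing more. The 3 depletions added RNA interference against the CDK8 module, a group of subunits with a kinase that binds the Mediator complex of RNA polymerase II: UAS-Cdk8i-cycCi/+ (Cdk8-CycC depletion), UAS-Med12i/+ (Med12 depletion) and UAS-Cdk8i-cycCi-Med12i/+ (combined depletion). Many discs were pooled into 1 trypsin-dissociated suspension and 1 droplet single-cell library per genotype, so no genotype has a replicate, no test between genotypes was possible and no p-value is given. The study asked how loss of different subunits of the module acts on growth and proliferation in the same tissue.

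Actin filaments grow from monomers under nucleators and formins, are capped and severed, and are pulled on by non-muscle myosin II. Microtubules, built of alpha- and beta-tubulin, carry kinesin and dynein motors. KASH-domain proteins in the outer nuclear membrane bind SUN-domain proteins in the inner membrane, and through them join both filament systems to the lamina that lines the nucleus. In the wing disc these parts give epithelial cells their height, their contractile apical surface and the position of their nuclei.

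Each table the authors deposited sets GFP-positive against GFP-negative cells of a library, among cells in which nub, a wing pouch gene, was detected. It gives for each listed gene a log fold and the percentage of each cell set in which the gene was detected. Folds are given below as log2 of GFP-positive over GFP-negative cells, and a fold and a detection percentage are different quantities. The tables listed 5524 genes in Control, 6799 under Cdk8-CycC depletion, 5568 under Med12 depletion and 6377 under the combined depletion, and a gene not listed has no value rather than a value of 0. No source used here gives cell numbers, cell barcodes or sequencing depth, and no interval could be set on any value. Among all listed genes, detection was higher in GFP-positive cells for 98.5% to 99.4% of genes, with a median log2 ratio of the detection percentages from 0.42 to 0.60. This difference touches every detection value below, and its part in the results was not tested. The labels were checked on the targeted genes: CycC was detected in 43.2% of dorsal GFP-positive and 32.4% of ventral GFP-negative control cells, and in 18.9% and 32.2% of these sets under Cdk8-CycC depletion. The Med12 gene, kto, was detected in 38.6% and 28.6% of these sets in Control and in 32.0% and 38.9% under Med12 depletion. All 4 dorsal markers looked at, ap among them, had higher means in GFP-positive cells of every library. Both ventral markers had lower means, and none of 5 hemocyte markers stood in any table. The gene ap was also detected in 5.3% to 7.2% of GFP-negative cells, and whether all of these are ventral was not tested. Ubx and Antp, taken as peripodial markers, had higher means in GFP-positive cells of every library. Ubx was detected in 88.1% to 96.0% of GFP-positive and 18.6% to 39.7% of GFP-negative cells. The GFP-positive percentages exceed those of ap, 62.6% to 68.1%, so Ubx does not single out peripodial cells here. Its log2 fold was 3.86 to 4.62, beside 3.95 to 4.90 for GFP. Antp was detected in 53.6% to 82.8% of GFP-positive and 38.4% to 60.5% of GFP-negative cells. The log2 fold of Antp was 0.04 in Control, 0.03 under Cdk8-CycC, 0.23 under Med12 and 0.21 under combined depletion. It was thus higher in both libraries that target Med12. The part of peripodial cells in the values below was not tested.

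The members were broadly detected genes with small differences between dorsal GFP-positive and ventral GFP-negative cells in every library. No member reached 1.3-fold in either direction within any library, among the genes detected in at least 10% of either cell set. In the background of all genes so detected, 0.396% reached it in Control, 0.578% under Cdk8-CycC depletion, 1.23% under Med12 depletion and 0.91% under the combined depletion. The targeted genes did not reach 1.3-fold either, so falling short of it does not show that a gene was unchanged. Under Cdk8-CycC and combined depletion, log2 folds were -0.24 and -0.21 for CycC and -0.06 and -0.08 for Cdk8. Those of kto were -0.15 under Med12 and -0.22 under combined depletion. The log2 folds of members lay from -0.38 to 0.18 in Control, and under Cdk8-CycC, Med12 and combined depletion from -0.07 to 0.26, from -0.27 to 0.30 and from -0.01 to 0.36. Their median log2 folds were 0.03, 0.07, 0.06 and 0.06 in that order, beside 0.00, 0.02, 0.02 and 0.02 over all listed genes.

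More of the members were listed, and more of them on the higher side, in the depletion libraries. Control listed 20 of them, 12 with a higher mean in GFP-positive cells and 8 with a lower one. Cdk8-CycC depletion listed 36 with 30 higher, Med12 depletion 31 with 28 higher and the combined depletion 32 with 28 higher. Higher members were thus 60%, 83.3%, 90.3% and 87.5% of those listed, in the same order, beside 55.8%, 77.6%, 73.9% and 76.1% of all listed genes. The larger share of higher members under the depletions than in Control is therefore one that all genes show as well. The number of listed members does not follow that of all genes in the same way, since Med12 depletion listed 5568 genes beside 5524 in Control. It does rise with that of broadly detected genes. Listed genes detected in at least 95% of GFP-negative cells were 99 in Control, and 200, 180 and 169 under Cdk8-CycC, Med12 and combined depletion. Members among them were 4, 10, 10 and 9. The part of broad detection, cell number and depth in the listing was not tested. There were 15 members in all 4 tables, 12 in the 3 depletion tables but not in Control, and 4 in a single table. Of the 20 members without a control value, 19 were listed under at least 1 depletion, among them alphaTub84B, betaTub56D, zip, Moe, cher and LamC, and their values cannot be set against the control.

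A smaller limit of 1.1-fold, a log2 fold of 0.14, separated a few members. In Control, 2 of the 20 listed members were higher by it (10%, background 2.02%) and 3 were lower (15%, background 1.35%). Under Cdk8-CycC depletion, 6 of 36 were higher (16.7%, background 6.02%) and none lower (background 1.44%). Under Med12 depletion, 3 of 31 were higher (9.68%, background 5.51%) and 2 lower (6.45%, background 2.14%). Under the combined depletion, 6 of 32 were higher (18.8%, background 5.12%) and none lower (background 1.46%). These genes were mainly tubulins, actin regulators and Msp300, as the plot of the folds by role group shows. The background is not matched for detection. Median detection of members in GFP-negative cells was 53.0%, 76.3%, 80.9% and 84.3% in Control, Cdk8-CycC, Med12 and combined depletion. Over all listed genes it was 23.9%, 27.0%, 37.9% and 36.1%. The part of this difference in the shares above was not tested.

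**Figure D1:**
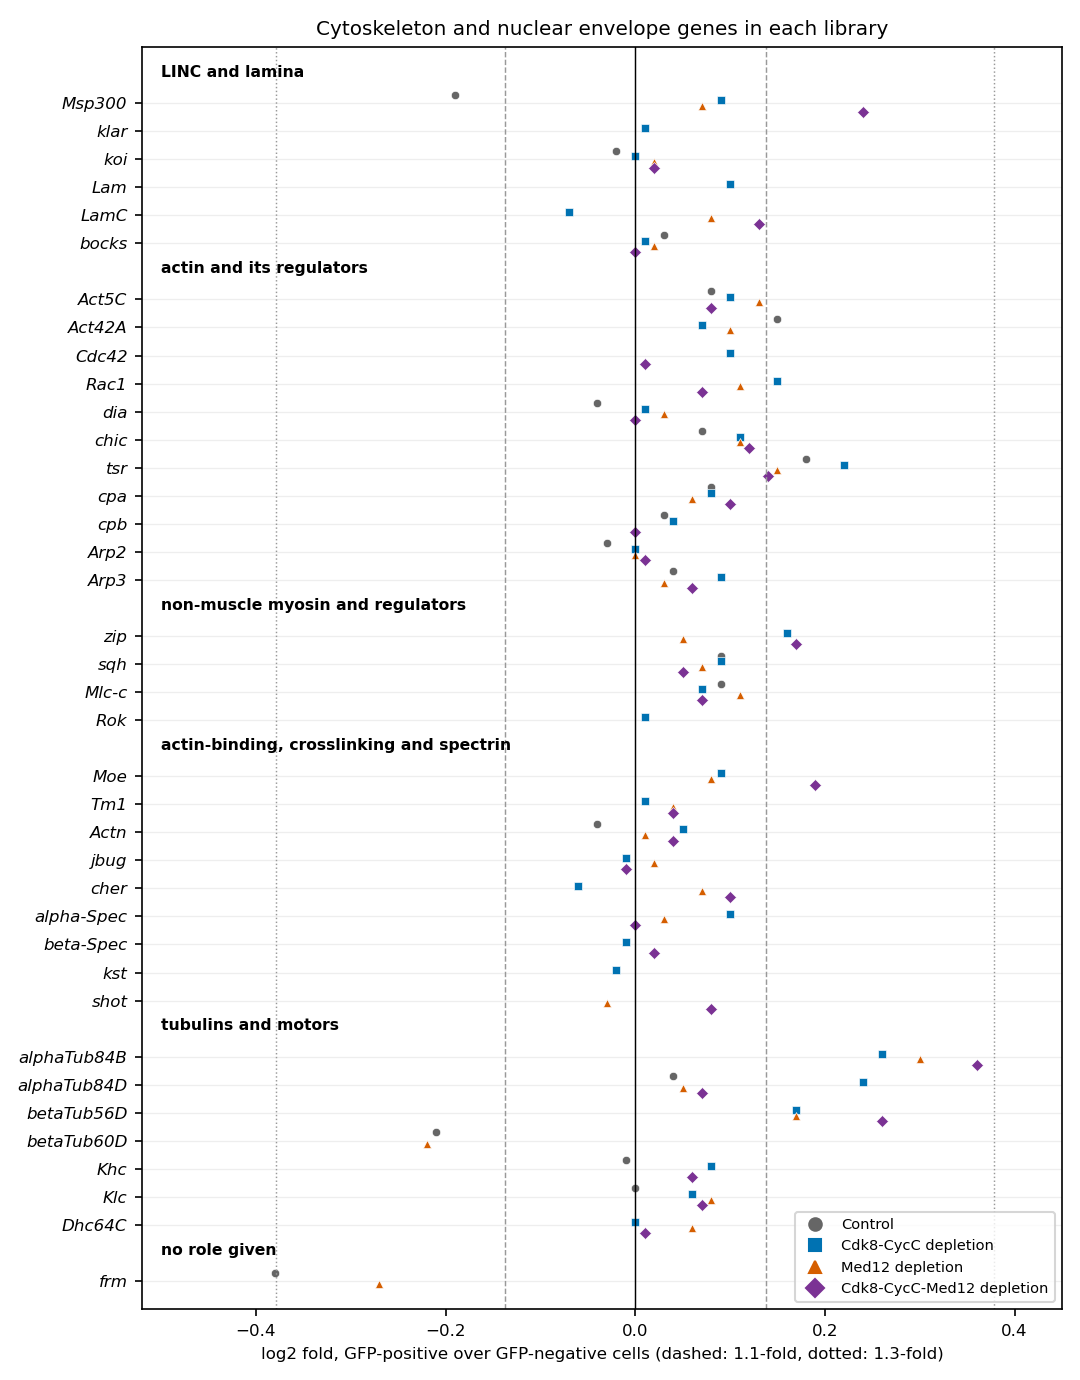
Log2 fold between GFP-positive and GFP-negative cells (x axis) for each listed member reported here (rows, by role group), with 1 symbol per library and no symbol where the table does not list the gene. Most symbols lie between the dashed lines at 1.1-fold, and alphaTub84B lies farthest to the right, at 0.36 under the combined depletion.

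Among the nuclear envelope genes, Msp300, the large KASH-domain nesprin that anchors actin and microtubules to the nucleus, varied most between libraries. Its log2 fold in the authors' deposited tables was -0.19 in Control, 0.09 under Cdk8-CycC depletion, 0.07 under Med12 depletion and 0.24 under the combined depletion. In the control library the dorsal cells thus had less of it than the ventral cells, and in all 3 depletion libraries they had more. Detection was close to complete, at 99.1% in Control, 99.7% under Cdk8-CycC, 98.9% under Med12 and 99.9% under combined depletion in the GFP-positive sets, and at 99.3%, 99.1%, 97.5% and 99.6% in the GFP-negative sets. The difference between libraries was therefore one of mean level per cell, with almost no room left in the share of cells.

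Msp300 is also expressed in muscle, so the markers of the myoblasts that lie under the disc are given beside it, and those of neurons after them. Of 8 such markers, 6 stood in no table, among them twi, Him, zfh1 and Mhc. The other 2 were sns, with Mef2 in 2 libraries. For sns, detection in the GFP-positive and GFP-negative sets was 9.4% and 4.7% in Control, 9.4% and 5.1% under Cdk8-CycC depletion and 20.0% and 12.7% in the combined library. For Mef2, without a control value, it was 65.3% and 50.8% in the combined library. The log2 ratio of its percentages in the sets was 0.56 under Cdk8-CycC depletion and 0.36 in the combined library. Over all listed genes the medians of this ratio were 0.60 and 0.48. The log2 folds of Mef2 in these libraries were 0.00 and -0.05. Those of sns were 0.00 in Control, 0.00 under Cdk8-CycC depletion and 0.01 in the combined library. Neither gene stood in the Med12 depletion table. Of 5 markers of neurons and sensory organs, 2 were listed in every library and 3 stood in no table. The neuronal gene elav had log2 folds of -0.06, 0.03, 0.07 and 0.13. Like those of Msp300, they were lowest in Control and highest under the combined depletion. However, elav was detected in 57.4% to 81.4% of GFP-positive and 45.9% to 60.4% of GFP-negative cells, too broadly to single out neurons here. The sensory organ gene sca had log2 folds of 0.01, 0.09, -0.02 and 0.03. The summed detection of these 2 genes was 94.6%, 109.5%, 110.9% and 138.3% in GFP-positive sets and 74.5%, 80.2%, 80.0% and 97.1% in GFP-negative sets. The part of either cell type in the Msp300 values was not tested.

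The SUN-domain protein koi, the inner-membrane partner of Msp300, did not follow it. Its log2 folds were -0.02, 0.00, 0.02 and 0.02 in Control, Cdk8-CycC, Med12 and combined depletion, with detection in 54.8%, 60.4%, 71.4% and 73.3% of GFP-positive cells and in 43.1%, 43.9%, 58.8% and 57.8% of GFP-negative cells. The other KASH-domain gene, klar, which positions nuclei and lipid droplets along microtubules, was listed under Cdk8-CycC depletion only, at 0.01, with detection in 96.3% and 91.7% of the sets. The inner nuclear membrane LEM-domain gene bocks had log2 folds of 0.03, 0.01, 0.02 and 0.00. It was detected in 24.3%, 27.8%, 43.6% and 37.6% of GFP-positive cells and in 15.1%, 16.6%, 32.5% and 25.6% of GFP-negative cells.

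The lamins form the meshwork on which these linkers rest. Lam, the B-type lamin, was listed under Cdk8-CycC depletion only, with a log2 fold of 0.10 and detection in 98.1% and 94.5% of the sets. LamC, the A-type lamin, was not listed in Control, and its log2 fold was -0.07 under Cdk8-CycC depletion, 0.08 under Med12 depletion and 0.13 under the combined depletion. Its detection, GFP-positive set first, was 28.9% and 20.2% under Cdk8-CycC depletion, 32.3% and 16.5% in the Med12 library and 55.2% and 31.6% in the combined library. The log2 ratios of these percentages were 0.52, 0.97 and 0.80. Once the median ratio of all genes in the same table was taken off, they stood at -0.08, 0.55 and 0.33. LamC was thus above the general detection difference in both libraries that target Med12 and slightly below it in the library that does not. That difference is not matched for detection, and ratios have more room to rise at low percentages. LamC stood below the median detection of all listed genes in GFP-negative cells, which was 27.0%, 37.9% and 36.1% in these libraries. The part of low detection in its ratios was not tested. The plot of detection percentages shows LamC before the median ratio is taken off.

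**Figure D2:**
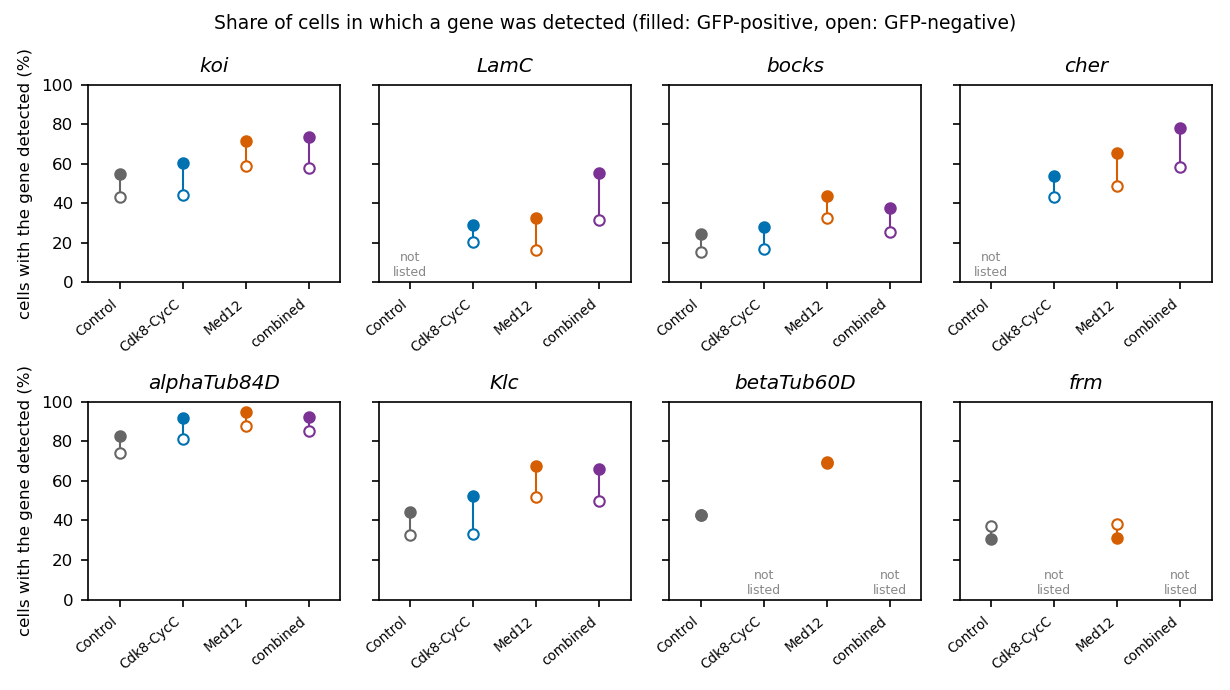
Percentage of GFP-positive and GFP-negative cells in which each plotted gene was detected (y axis, percent), by library (x axis). LamC separates more in both Med12-targeting libraries (32.3% against 16.5%, and 55.2% against 31.6%) than under Cdk8-CycC depletion (28.9% against 20.2%). The percentages of betaTub60D in Control (43.0% and 42.7%) nearly coincide.

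Most of the actin group had higher means in GFP-positive cells, as most genes did in the depletion tables. Members higher in GFP-positive cells were 7 of 9 listed in Control, 10 of 11 under Cdk8-CycC depletion, 9 of 9 under Med12 depletion and 9 of 10 under the combined depletion, with group medians of 0.07, 0.09, 0.10 and 0.06, beside 55.8%, 77.6%, 73.9% and 76.1% of all listed genes higher. The highest values belonged to tsr, the fly cofilin that severs actin filaments, with log2 folds of 0.18, 0.22, 0.15 and 0.14 in Control, Cdk8-CycC, Med12 and combined depletion. It was the only member at or above 1.1-fold in all 4 libraries, the control included. Detection of tsr was 98.0%, 99.4%, 99.7% and 98.8% of GFP-positive cells and 95.8%, 98.5%, 99.0% and 96.6% of GFP-negative cells.

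Both cytoplasmic actins had higher means in GFP-positive cells wherever they were listed. Act5C had log2 folds of 0.08, 0.10, 0.13 and 0.08 and was detected in at least 99.3% of either set in all 4 libraries. Act42A had log2 folds of 0.15, 0.07 and 0.10 in Control, Cdk8-CycC and Med12 depletion and was not listed in the combined library. Its detection was 96.4% and 92.3%, 98.2% and 96.2%, and 98.6% and 98.0% of the GFP-positive and GFP-negative sets. No source used here says how reads shared by near-identical copies, such as the actins and the tubulins, were counted, and the split of levels between these copies is uncertain.

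Profilin, encoded by chic, supplies actin monomers to growing ends and had log2 folds of 0.07, 0.11, 0.11 and 0.12. It was detected in 98.7% to 99.8% of either set. Rac1, a small GTPase that drives branched actin networks, was not listed in Control and had 0.15, 0.11 and 0.07 under Cdk8-CycC, Med12 and combined depletion. Rac1 was detected in 91.9%, 93.6% and 93.2% of GFP-positive cells and in 82.3%, 87.4% and 86.5% of GFP-negative cells. The remaining members were the capping protein subunits cpa and cpb, the nucleators Arp2 and Arp3, the formin dia and the GTPase Cdc42, and their log2 folds ran from -0.04 to 0.10.

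The heavy and light chains of non-muscle myosin II were higher in GFP-positive cells wherever they were listed. The heavy chain zip had log2 folds of 0.16 under Cdk8-CycC depletion, 0.05 under Med12 depletion and 0.17 under the combined depletion, with detection in 97.4%, 96.1% and 99.0% of GFP-positive cells and 93.3%, 93.7% and 97.0% of GFP-negative cells. The regulatory light chain sqh had 0.09 in Control and 0.09, 0.07 and 0.05 under the depletions, with detection in 85.9%, 92.0%, 94.4% and 90.7% of GFP-positive and 76.1%, 84.8%, 89.4% and 84.0% of GFP-negative cells. The essential light chain Mlc-c had 0.09, 0.07, 0.11 and 0.07, with detection in 87.1%, 91.9%, 94.5% and 92.6% of GFP-positive and 77.4%, 83.9%, 87.8% and 85.1% of GFP-negative cells. The control values of both light chains lay within 0.04 of those under the depletions, while zip, without a control value, stood past 1.1-fold in both libraries that target Cdk8 and CycC. Rok, a kinase that activates myosin, had a log2 fold of 0.01 in its single table.

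The crosslinking and spectrin genes gave the smallest folds of the named groups, with group medians of 0.00, 0.03 and 0.04 under Cdk8-CycC, Med12 and combined depletion. Moe, the moesin that ties actin to the plasma membrane, reached 1.1-fold under the combined depletion alone. Its log2 folds were 0.09, 0.08 and 0.19 under Cdk8-CycC, Med12 and combined depletion, with detection in 98.9%, 99.1% and 99.6% of GFP-positive and 97.5%, 97.2% and 98.3% of GFP-negative cells. The filamin cher had -0.06, 0.07 and 0.10, with detection in 53.8%, 65.2% and 78.2% of GFP-positive and 43.2%, 48.7% and 58.2% of GFP-negative cells. The alpha-actinin gene Actn was the only one of the group with a control value, and its log2 folds were -0.04, 0.05, 0.01 and 0.04, with detection in 61.3%, 66.2%, 74.1% and 76.4% of GFP-positive and 49.1%, 48.8%, 62.6% and 63.9% of GFP-negative cells. The tropomyosin Tm1, the filamin jbug, the spectrins alpha-Spec, beta-Spec and kst, and the spectraplakin shot, which links actin to microtubules, had values from -0.03 to 0.10.

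Tubulins held the highest folds among all members in the 3 depletion libraries, while in Control tsr was highest, at 0.18. The log2 fold of alphaTub84B, the main alpha-tubulin, was 0.26 under Cdk8-CycC depletion, 0.30 under Med12 depletion and 0.36 under the combined depletion, which are 1.2-fold, 1.23-fold and 1.29-fold. Only 1.17%, 1.45% and 0.532% of the genes detected in at least 10% of either set stood higher in those libraries. The gene was not listed in Control, and it was detected in at least 99.4% of either set in the other 3 libraries.

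Its partner betaTub56D, the main beta-tubulin, stood beside it, with log2 folds of 0.17, 0.17 and 0.26 in the 3 depletions and no control value. It was detected in 99.7% to 100.0% of either set. Among listed genes, those detected in at least 95% of GFP-negative cells had median log2 folds of -0.06, -0.05 and -0.07 in these tables. They were 200, 180 and 169 genes, a set that begins below the detection of both tubulins. The plot of all genes shows where alphaTub84B, betaTub56D, Msp300 and tsr lie.

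**Figure D3:**
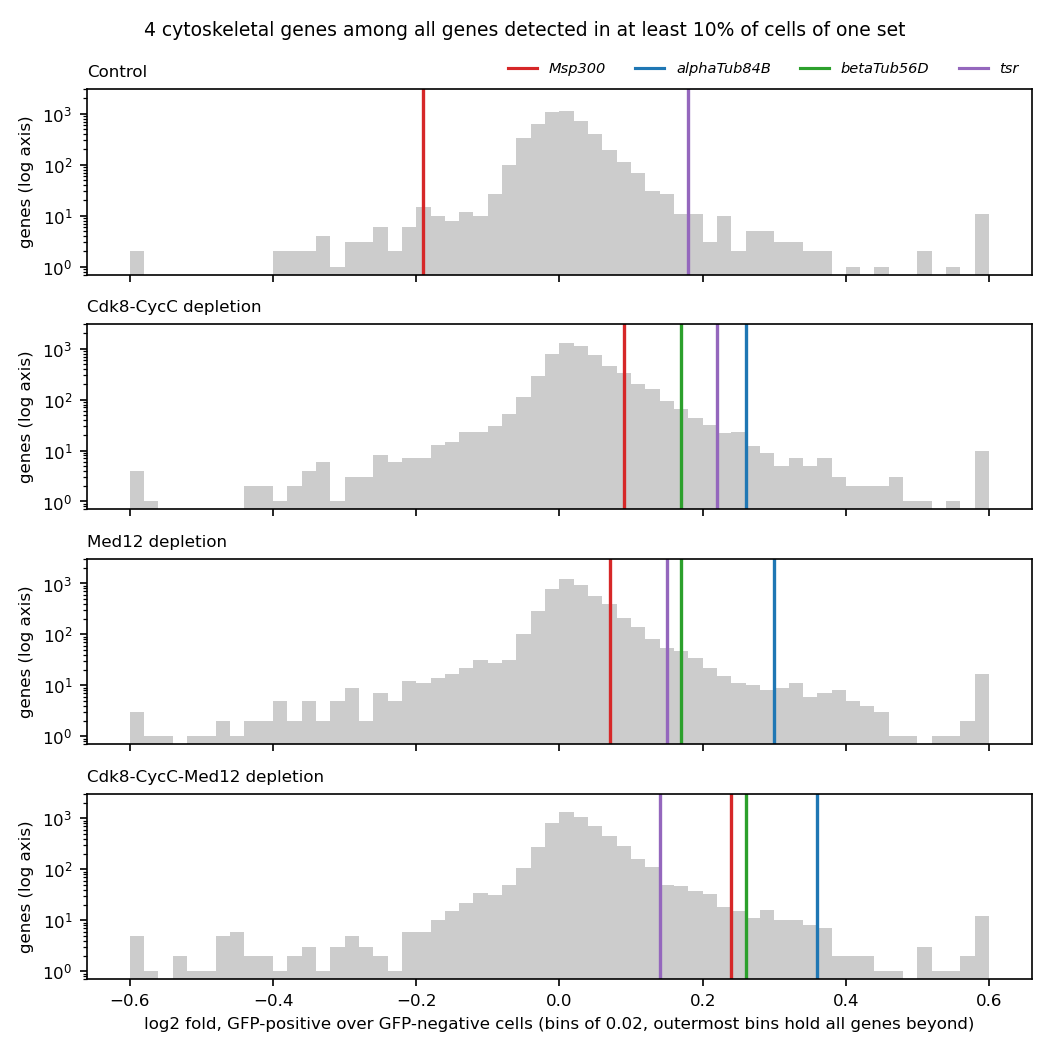
Distribution of the log2 fold over all genes detected in at least 10% of either cell set (bars; x axis log2 fold, y axis number of genes on a log scale), 1 panel per library, with vertical lines at 4 members. Msp300 lies on the low side in Control, at -0.19, and on the high side under the combined depletion, at 0.24, where alphaTub84B lies at 0.36.

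The second alpha-tubulin, alphaTub84D, stood apart in a single library. Its log2 fold was 0.04 in Control, 0.24 under Cdk8-CycC depletion, 0.05 under Med12 depletion and 0.07 under the combined depletion. Detection was 82.8%, 91.8%, 94.6% and 92.5% of GFP-positive and 74.0%, 81.3%, 87.7% and 85.4% of GFP-negative cells. The value of the Cdk8-CycC library did not recur in the combined library, which carries constructs against the same subunits.

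On the low side stood betaTub60D, a beta-tubulin best known from developing muscle, with log2 folds of -0.21 in Control and -0.22 under Med12 depletion. Its detection was nearly equal in the sets, at 43.0% and 42.7% in Control and 69.4% and 68.9% under Med12 depletion. The myoblast markers sns and Mef2 were not listed in the Med12 table, and the part of muscle precursors was not tested. The gene frm, to which no role is given here, had the lowest folds, -0.38 in Control and -0.27 under Med12 depletion. The control value stood at the limit of 1.3-fold without reaching it. It was detected in 30.7% and 31.0% of GFP-positive and in 37.2% and 38.2% of GFP-negative cells, and it was the only member detected in fewer GFP-positive cells under a depletion. The motors were close to even. Khc, the kinesin-1 heavy chain, had -0.01, 0.08 and 0.06 in Control, Cdk8-CycC and combined depletion, with detection in 66.8%, 76.5% and 81.4% of GFP-positive and 53.4%, 59.6% and 69.5% of GFP-negative cells. Its light chain Klc had 0.00, 0.06, 0.08 and 0.07 in the 4 libraries, and the dynein heavy chain Dhc64C had values from 0.00 to 0.06.

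To set a depletion against Control, the control log2 fold of each gene was subtracted from that of the depletion library, which removes the difference between dorsal and ventral cells that the control also has. This was possible for 18, 18 and 17 members under Cdk8-CycC, Med12 and combined depletion. All 3 differences share the control library, so they are not independent of each other. Members were near the genes at large, with median differences of 0.03, 0.02 and 0.03 beside 0.03, 0.02 and 0.02 over all genes compared. Above 0 stood 14 of 18, 11 of 18 and 11 of 17 members, which are 77.8%, 61.1% and 64.7% beside 75.5%, 69.6% and 71.3% of all genes.

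Msp300 was the member that differed most from Control under each depletion. Its differences were 0.28 under Cdk8-CycC depletion, 0.26 under Med12 depletion and 0.44, which is 1.35-fold, under the combined depletion. It ranked 21 of 5073, 35 of 4473 and 8 of 4835 genes from the top, so that 0.394%, 0.76% and 0.145% of genes stood higher. The combined value was the only one among members past 1.3-fold, and it falls to 0.30, short of that limit, if the deposited fold, whose base is not stated, is a log2 value. At 1.3-fold the background was 0.118%, 0.38% and 0.414% of all genes in the 3 comparisons. Of the combined difference of 0.44, the control library gave 0.19 through its own low value and the depletion library 0.24, the parts being rounded. Each rests on 1 library.

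At 1.1-fold, 2 of 18 members were higher than in Control under Cdk8-CycC depletion (background 3.19%), 1 of 18 under Med12 depletion (3.17%) and 1 of 17 under the combined depletion (3.29%). These were Msp300 in each and alphaTub84D, with 0.21, under Cdk8-CycC depletion. No member was lower than in Control by 1.1-fold, where the backgrounds were 0.808%, 1.16% and 1.24%. The difference for alphaTub84D was 0.01 under Med12 depletion and 0.03 under the combined depletion. Under Cdk8-CycC depletion, ratios of detection percentages less the median of all genes gave -0.07 for alphaTub84D and -0.08 for Msp300.

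Apart from these genes, differences from Control were within the central 95% of all genes, which ran from -0.07 to 0.15, -0.08 to 0.15 and -0.08 to 0.16, save Act42A at -0.08 under Cdk8-CycC depletion. Actn differed by 0.09, 0.05 and 0.08, Klc by 0.06, 0.08 and 0.07, and Khc by 0.10 and 0.07 under Cdk8-CycC and combined depletion. The linker partner koi differed by 0.02, 0.04 and 0.04, and the formin dia by 0.05, 0.07 and 0.04. The low dorsal values of betaTub60D and frm in Control had counterparts under Med12 depletion, with differences of -0.01 and 0.11.

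**Figure D4:**
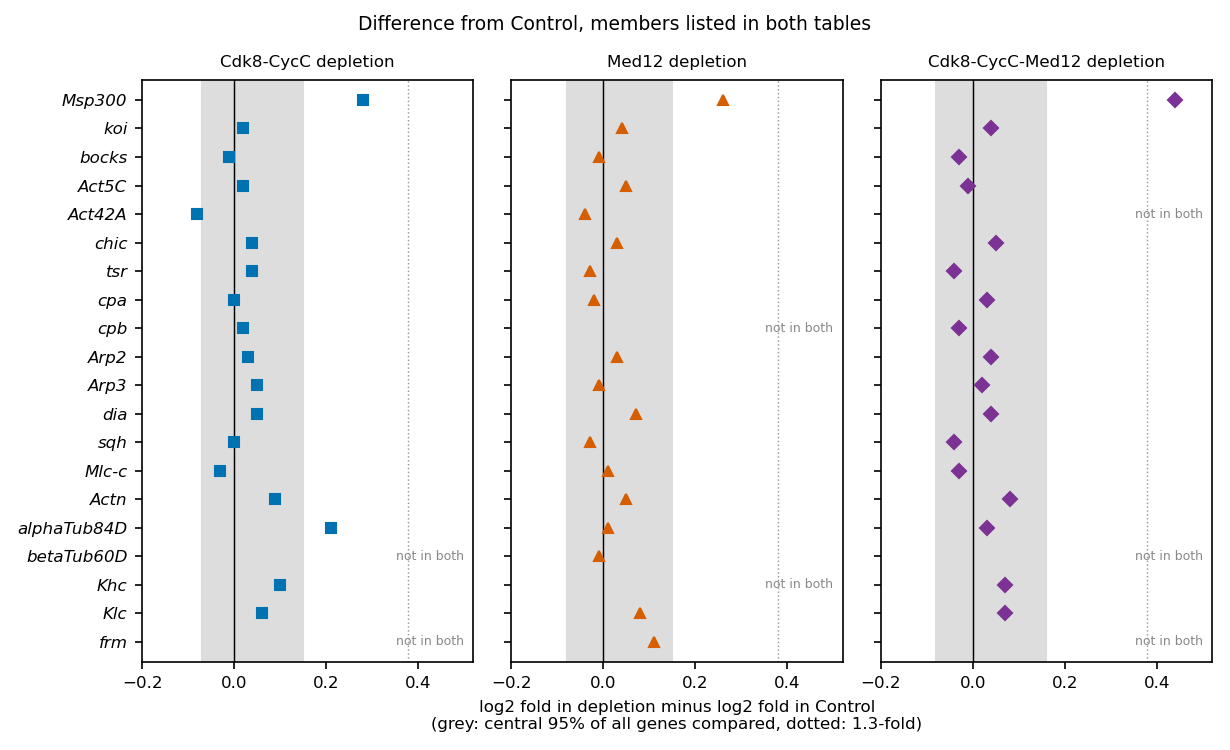
Difference of log2 fold from the control library (x axis) for each member that both tables list, with 1 symbol per depletion. Msp300 lies to the right under each depletion, at 0.28, 0.26 and 0.44, and alphaTub84D, at 0.21 under Cdk8-CycC depletion, is the only other member past 1.1-fold.

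The depletions were also compared with each other, which leaves the control library out. No member differed by 1.3-fold between depletions. Of 28 members, alphaTub84D was higher under Cdk8-CycC than under Med12 depletion by 0.19 (background of 1.1-fold higher genes 2.32%), and LamC was lower by 0.15, a difference of -0.15 (background of 1.1-fold lower genes 2.34%). In the fold, LamC and alphaTub84D thus separate the single depletions in opposite directions. With ratios of detection percentages less the median of all genes, alphaTub84D had -0.10 in place of 0.19.

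Of 28 members in the combined and Med12 depletion tables, Msp300 was higher in the combined library by 0.17, rank 15 of 4981 genes (background 0.743%), and none was lower (background 0.663%). Against Cdk8-CycC depletion, 3 of 31 members were higher under the combined depletion (background 1.81%), LamC by 0.20, Msp300 by 0.16 and cher by 0.15, and alphaTub84D was lower with -0.18 (background 1.56%). Msp300 was thus higher under the combined depletion than under either single depletion, each by 1 library against 1. Median differences over members were -0.01, 0.01 and 0.01 in these comparisons.

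Other genes of the cytoskeleton were taken from lists by function, 135 genes in all, of which 112 stood in at least 1 table. Against Control, 4 of 77 were higher by 1.1-fold under Cdk8-CycC depletion and none lower, 2 of 64 were higher and 1 lower under Med12 depletion, and 2 of 75 were higher and none lower under the combined depletion. Over all genes 3.19%, 3.17% and 3.29% were higher and 0.808%, 1.16% and 1.24% lower, so these counts are near the background. None differed from Control by 1.3-fold. Their median differences were 0.04, 0.02 and 0.04, beside 0.03, 0.02 and 0.02 over all genes, and 60 of 77, 42 of 64 and 64 of 75 lay above 0, beside 75.5%, 69.6% and 71.3% of all genes.

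The 4 genes higher under Cdk8-CycC depletion were pav, a kinesin of the central spindle, at 0.19, the spindle kinesin Klp61F at 0.16, the LEM-domain gene Ote at 0.16 and the anillin scra at 0.15. Ote, which like bocks encodes an inner nuclear membrane protein, was found in 72.8% of the GFP-positive set and 49.9% of the GFP-negative set there, and in 63.9% and 48.7% in Control.

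Under Med12 depletion the actin-binding gene cib was higher than in Control by 0.21 and the septin gene Septin5 by 0.16, while the coronin coro had -0.18. Under the combined depletion cib was higher by 0.20 and the myosin VI gene jar by 0.14. The log2 folds of cib in the authors' deposited tables were 0.03 in Control, 0.08 under Cdk8-CycC depletion, 0.24 under Med12 depletion and 0.23 under the combined depletion, so it was high in both libraries that target Med12. The gene cv-c, a regulator of the actin cytoskeleton, not listed in Control, was the only gene of these lists past 1.3-fold within a library, at -0.40 under Med12 depletion, and had -0.38 under the combined depletion, just short of that limit.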

How the data were processed

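Wing disc libraries of 4 genotypes were analysed, 1 library each. Reads were processed with Cell Ranger 3.0.2 and cells with Seurat, per the submitters' processing notes. No source used here gives the genome build, the Seurat version, the filters on cells, the treatment of doublets or the depth, and no coordinates or intervals were printed. Each of the authors' deposited tables holds a log fold between GFP-positive and GFP-negative cells, detection as a fraction of cells in each set, and p-values made from cells. The deposited fold was taken as a natural log, from the column name used by early Seurat releases, since the file header states no base. Such folds are made on mean values with 1 added, which would make the change of low genes look smaller, and both points are inferences from the column name. Only genes with a p-value of at most 0.01 are listed, so a value missing from a table is not a value of 0. Cells are not replicates, and the deposited p-values were not used.

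Folds were turned into log2 and signed by the set named as higher, and fractions into percent. Differences between libraries were taken over genes listed in both. A call was 1.3-fold (log2 0.38), with detection in at least 10% of either set, and 1.1-fold (log2 0.14) was a smaller limit. Values are given for every nuclear envelope member, for members past either limit and for the 2 members of each group detected in the largest share of control GFP-negative cells. Of other cytoskeleton genes, those past 1.3-fold and up to 5 per depletion past 1.1-fold are named. The values of 1 member are not reported here, though counts and medians include it. Members and lists were chosen with earlier results of these data known. Of the 39 members, 37 matched the reference gene table by symbol and identifier, and zip and betaTub60D carry another identifier there. The code, run with Python 3.11.15 and pandas 2.3.3, was tested on simulated data. Alternatives were other fold limits, detection minimums, the log base, centring, detection ratios and the handling of unlisted genes.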

Additional observations from a re-analysis of the deposited data

Results flagged for a closer look

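Msp300 differed by 0.44 on the log2 scale between the combined depletion and Control. It was lower in GFP-positive than in GFP-negative cells of the control library (-0.19) and higher in those of the combined library (0.24), so the single libraries of the groups lie on opposite sides of 0. The difference was not tested, because each group is 1 library. Detection of Msp300 in GFP-negative cells was 99.3% in Control and 99.6% in the combined library, too near 100% to show whether its level there differed.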

How the results depend on the processing

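No paired analysis was possible because each genotype has 1 library, and for the same reason no library could be left out and no replicate block fitted. The counts of members past 1.3-fold were 0 in every comparison but the combined depletion against Control, where it was 1 (Msp300). With 1.1-fold, the higher and lower counts were 2 and 3 in Control, 6 and 0 under Cdk8-CycC, 3 and 2 under Med12 and 6 and 0 under the combined depletion. Against Control they were 2 higher under Cdk8-CycC and 1 under Med12 depletion. Between depletions they were 1 and 1 for Cdk8-CycC minus Med12, 1 and 0 for combined minus Med12, and 3 and 1 for combined minus Cdk8-CycC. With 1.2-fold, Control had 1 lower, Med12 depletion 1 higher and 1 lower, and the combined depletion 1 higher; Cdk8-CycC and Med12 depletion each had 1 higher against Control. Centred on the median of all genes, Control had 1 lower (frm). The combined difference of Msp300 was no longer past the limit with 1.5-fold, with the deposited fold read as log2, without subtraction of the control, or with any detection ratio (count 0 each).

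Replacing folds by ratios of detection percentages gave 2, 8, 5 and 4 higher members in Control, Cdk8-CycC, Med12 and combined depletion, and 1 lower for Cdk8-CycC minus Med12. Centred on the table's median, these ratios gave 7, 18, 13 and 11 lower members, 1 higher under Med12 depletion, 1 lower for Cdk8-CycC minus Med12 and 1 higher for combined minus Cdk8-CycC (LamC in each of these 3). A centred ratio of -ln(1 - share), added after seeing the data because many members were detected in nearly all cells, gave 4, 9, 4 and 3 lower members, 1 higher under Med12 and 1 under the combined depletion (LamC), and 1 higher for Med12 depletion against Control (Msp300, 0.39). It also gave 2 lower for Cdk8-CycC minus Med12 and 2 higher for combined minus Cdk8-CycC (LamC and cher). The cause of these shifts was not tested. Of the 33 member values past 1.1-fold, 4 changed sign under the detection ratio, 22 under the centred one and 19 under the centred -ln(1 - share) ratio, and none under the other settings. Within libraries, 17 of 22 changed sign under each centred ratio. Between libraries, alphaTub84D for Cdk8-CycC minus Med12 changed sign under both (-0.10 and -0.07). Under the centred detection ratio, alphaTub84D also did so for combined minus Cdk8-CycC (0.06). Other detection minimums, and setting unlisted folds to 0, changed no count. Depth is unknown, and a difference in members detected in nearly all cells can show only in the fold.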

Other observations

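GFP-negative cells, in which no GFP was detected, can be set side by side across libraries by detection alone. Whether all of them were free of depletion was not tested, and ap was detected in 5.3% to 7.2% of them. Over the 4300 genes listed in all 4 tables, the median detection in these cells was 22.4% in Control, 24.5% under Cdk8-CycC depletion, 36.7% under Med12 depletion and 35.0% under the combined depletion. Members went with this general difference between libraries to unequal degrees. The LEM-domain gene bocks was detected in 15.1%, 16.6%, 32.5% and 25.6% of GFP-negative cells, and koi in 43.1%, 43.9%, 58.8% and 57.8%. The formin dia was detected in 36.2%, 36.4%, 43.0% and 54.8%, the highest value being that of the combined library. Between Control and Med12 depletion, betaTub60D went from 42.7% to 68.9%, while frm stood at 37.2% and 38.2%, and 97.8% of the genes in both tables had a larger difference than frm on the log2 scale of -ln(1 - share). Msp300 was detected in 99.3% of these cells in Control and in 97.5% under Med12 depletion, and 99.7% of genes had a larger difference. Other members detected in nearly all cells also ranked low, Act5C with 98.6% and chic with 96.9% of genes having a larger difference. Depth per cell is not given in the sources used here, and its part in these values was not tested.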
